A study of Mus musculus with 8 samples.

Results

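The genes described here encode the proteins of the cytosolic ribosome. They were the genes with a symbol starting in Rpl or Rps followed by a digit, together with Rplp0, Rplp1, Rplp2 and Rpsa. The S6 kinases (Rps6k) and pseudogenes marked by -ps in the symbol were left out. A gene was measured where at least 1 probe set, the group of probes that reports a gene, carried its symbol alone. This left 63 genes, 38 of the large and 25 of the small subunit, of 19938 genes measured in the same way. The symbols also took in a few genes that are not core ribosomal proteins: Rps19bp1 encodes a protein that binds Rps19, Rps23rg1 is a retrogene, Rps4l is annotated as a transcribed pseudogene, and Rpl3l, Rpl7l1, Rpl10l, Rpl32l, Rpl39l and Rps27l are paralogs. Another 20 symbols, among them Rpl3, Rpl11, Rpl32, Rps23 and Rps27, were found only on probe sets shared between several genes and were not analysed here as single genes.

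Whole-brain RNA from male C57BL/6J mice at postnatal day 70 was hybridised to 8 Mouse Gene 1.0 ST arrays (Affymetrix), 2 in each of 4 groups. The mothers had received 2 injections of 2.5 g/kg ethanol on each of gestational days 8 and 11 (early ethanol) or 14 and 16 (late ethanol), and the controls received saline on the same days (early saline and late saline). The comparisons ask whether the adult brains of mice exposed before birth differ in expression from those of saline controls, within each timing. Each array carried pooled RNA of 3 mice, so the spread between 2 arrays is that of pools and not of single mice.

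A ribosome consists of a small subunit, which binds mRNA and reads its codons, and a large subunit, which joins amino acids and extrudes the growing protein. Every subunit needs 1 copy of nearly all of its proteins, and the genes that encode them are among the most strongly expressed in any tissue, neurons and glia included. Most of their mRNAs begin with a cytosine followed by an unbroken run of pyrimidines, the 5′ terminal oligopyrimidine tract, through which mTOR signalling controls how well they are translated. Translation was not measured here. The mouse genome also holds many processed copies of these genes, which share most of their sequence with the parent gene.

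Start sites are shown for 4 genes to which the results return, because the tract is the feature that many genes of the family share. Each line gives 30 bases, 15 before the start listed by RefSeq (GRCm38.p6) and 15 from it on, 5′ to 3′ on the strand of the gene. Capitals mark a C at the listed start with the C or T that follow it without a break. The windows lie at chr4:86857353-86857382 on the minus strand (Rps6), chr11:114668565-114668594 on the plus strand (Rpl38), chrX:134585639-134585668 on the plus strand (Rpl36a) and chr11:68901551-68901580 on the plus strand (Rpl26).
Rps6: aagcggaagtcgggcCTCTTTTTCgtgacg
Rpl38: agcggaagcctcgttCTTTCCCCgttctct
Rpl36a: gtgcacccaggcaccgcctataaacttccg
Rpl26: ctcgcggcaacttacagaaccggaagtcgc
A tract of 9 bases opened the Rps6 transcript and 1 of 8 bases the Rpl38 transcript, whereas neither Rpl36a nor Rpl26 had one at the listed start. Of 51 genes of the family with a RefSeq entry of 300 bases around the start, 10 (19.6%) had a C at a listed start with at least 4 further pyrimidines, against 813 of 27025 genes (3.0%) over the whole genome. They were Rpl14, Rpl28, Rpl32l, Rpl38, Rplp2, Rps6, Rps10, Rps15a, Rps18 and Rps21. A listed start a few bases away from the true one would hide a tract, so 10 is a count of letters at listed starts. The letters CCGGAAG, the core bound by ETS factors, stood on either strand of the 300 bases in 19 of the 51 genes (37.3%) and in 9.9% of all genes, and TATAAA in 6 (11.8%) and in 15.7%.

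Expression was given as log2 values. A probe set counted as above background where its mean within a timing (4 arrays) exceeded the 95th percentile of 1205 probe sets for olfactory and vomeronasal receptors, which was 6.48 for the early and 7.45 for the late arrays. In the early arrays 58 of 63 genes were above this mark (34 large, 24 small) and in the late arrays 56 (33 and 23). The 5 below it at both timings were Rpl3l, Rpl10l, Rpl39l, Rps23rg1 and Rpl12. The first 3 are paralogs best known from striated muscle (Rpl3l) and testis (Rpl10l and Rpl39l), and their values lay between 5.04 and 5.95. Rpl12 is a core protein of the large subunit and its single probe set read 5.79 to 6.19. Rpl14 and Rps19 lay below the mark in the late arrays alone. The array medians were 6.74 to 6.84 for the early and 7.21 to 7.30 for the late arrays, so levels were compared only within a timing.

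The tissue matched its label, with all 6 neuronal, all 5 astrocyte and all 4 oligodendrocyte marker genes above background at both timings. The 6 nasal tissue markers averaged 8.19 and 7.10 in the early ethanol arrays against 6.68 and 6.74 in early saline, but went both ways: Bpifb9b (3.78), Bpifb9a (2.49) and Obp2a (1.59) of the nasal glands were higher with ethanol, while Stoml3 (-1.59) and Omp (-0.66) of olfactory neurons were lower and Cnga2 differed by -0.02. Their part in the early differences was not tested. In bulk tissue fewer cells of a type and less RNA per cell cannot be told apart. The lowest correlation between any 2 arrays of a timing was 0.988. At the bright end, early saline replicate 2 stood apart: its 99th percentile was 12.51 and its highest value 14.0, against 12.74 to 12.88 and 15.14 to 15.8 in the other early arrays.

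With early injections, the ribosomal protein genes of the large subunit were centred on no difference. The median of ethanol minus saline was -0.001 on the log2 scale, with 19 genes higher, 19 lower and a range from -0.35 (Rpl36a) to 0.18 (Rpl21). In the small subunit 9 genes were higher and 16 lower, with a median of -0.049 and a range from -0.21 (Rps14) to 0.32 (Rps6). Over all 23410 probe sets the median was -0.020 and 59.8% were lower. No gene of either subunit passed an adjusted p of 0.05 (limma with Benjamini-Hochberg adjustment over 23410 probe sets), as was the case for 0.0% of all probe sets. At an unadjusted p under 0.05, 3 genes and 401 of all probe sets passed. Of the 63 genes, 2 passed the thresholds of the study, an unadjusted p under 0.05 and a difference of at least 1.2-fold, against a background of 0.923%. Both ethanol arrays lay below both saline arrays for 10 genes (background 18.9%) and above them for 5 (background 7.5%). The median size of the difference in either direction was 0.096, slightly less than its median standard error of 0.108. With 2 arrays against 2, an exact permutation test of a single value cannot give a p below 0.333.

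**Figure D1:**
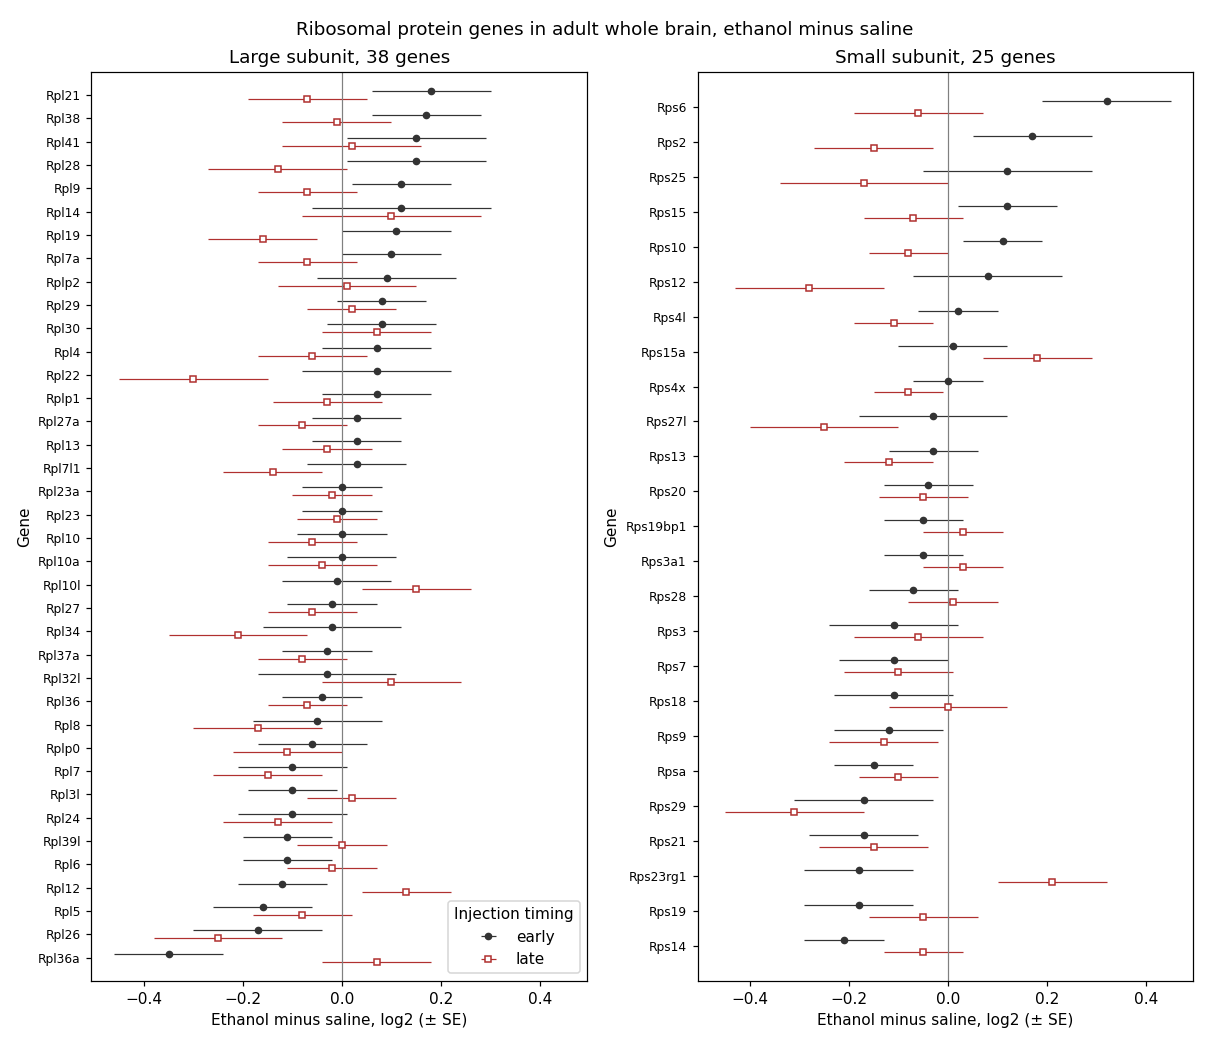
Ethanol minus saline (log2, horizontal axis) for each ribosomal protein gene of the large (left) and small (right) subunit, ordered by the early difference, with bars of 1 SE from limma. Filled circles are early and open squares late injections, and most bars cross or come near 0, with Rpl36a (-0.35) and Rps6 (0.32) farthest out among the early values.

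The lowest early difference belonged to Rpl36a, a large subunit protein encoded on the X chromosome. It read 11.19 and 11.12 in early ethanol and 11.54 and 11.46 in early saline. The groups did not overlap, and ethanol was 21.3% lower, or -0.35 ± 0.11 (log2, SE; limma, unadjusted p = 0.014, adjusted p = 1.0). Its other probe set gave a difference of the same size within 0.01. In the late arrays Rpl36a read 11.39 and 11.07 with ethanol and 11.21 and 11.13 with saline, groups that overlap, with a difference of 0.07 ± 0.11. The early minus late difference was -0.41 ± 0.16 (unadjusted p = 0.030, adjusted p = 1.0). The early value kept its sign with every array left out and under every other setting tried, between -0.39 and -0.30.

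Rps14, a protein of the platform of the small subunit, read 10.05 and 10.00 in early ethanol and 10.25 and 10.22 in early saline. Here too the groups did not overlap, and the difference was -0.21 ± 0.08 (unadjusted p = 0.024, adjusted p = 1.0), or 13.3% lower. The late values, 10.25 and 10.21 against 10.31 and 10.26, had the same order with a difference of only -0.05 ± 0.08.

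Rps6, the small subunit protein phosphorylated by S6 kinase downstream of mTOR, had the highest early difference. It read 13.73 and 13.91 in early ethanol and 13.67 and 13.33 in early saline. The difference was 0.32 ± 0.13 (unadjusted p = 0.045, adjusted p = 1.0), or 24.7% higher, and the lowest of the 4 values was that of early saline replicate 2, the array low at the bright end. All 8 probe sets of Rps6 were higher, by 0.12 to 0.32, and the brightest of those whose number lies among genes of chromosome 4, where Rps6 is encoded, gave 0.14 (unadjusted p = 0.30). The difference also depended on arrays and scaling: it was 0.15 without early saline replicate 2, 0.49 without early saline replicate 1, 0.16 under cyclic loess and 0.04 under quantile normalisation over 8 arrays. The late values were 13.29 and 13.08 against 13.17 and 13.31, with a difference of -0.06 ± 0.13, and the early minus late difference of 0.37 ± 0.19 had an unadjusted p of 0.084.

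The other large subunit genes with the smallest early p-values were Rpl5, Rpl21, Rpl38 and Rpl12, none of which reached an unadjusted p of 0.05. Rpl5, part of the particle that carries 5S rRNA into the ribosome, read 10.90 and 10.82 in ethanol and 11.13 and 10.91 in saline, a difference of -0.16 ± 0.10 without overlap, which was -0.04 without early saline replicate 1 and -0.27 without early saline replicate 2. Rpl21 read 13.30 and 13.20 against 13.23 and 12.91 (0.18 ± 0.12), and Rpl38 read 12.48 and 12.79 against 12.53 and 12.40 (0.17 ± 0.11). Both overlapped with saline, and in both the lowest array was early saline replicate 2. Rpl12, at background, differed by -0.12 ± 0.09.

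In the small subunit, Rpsa, a scaffold protein of the ribosome also known as the laminin receptor, read 9.69 and 9.65 in early ethanol and 9.83 and 9.80 in early saline (-0.15 ± 0.08). Its 5 probe sets disagreed, with differences from -0.15 to 0.13 and 3 of them higher. Rps19, mutated in Diamond-Blackfan anaemia, read 8.24 and 7.99 against 8.37 and 8.23, with overlap (-0.18 ± 0.11). Rps23rg1, at background, read 5.28 and 5.31 against 5.46 and 5.50 (-0.18 ± 0.11).

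The stalk proteins, which recruit elongation factors to the large subunit, showed no common direction in the early arrays. Rplp0 read 10.89 and 10.76 with ethanol and 11.03 and 10.74 with saline (-0.06 ± 0.11). Rplp1 read 11.82 and 11.66 against 11.81 and 11.52 (0.07 ± 0.11), and Rplp2 read 8.36 and 8.45 against 8.47 and 8.17 (0.09 ± 0.14). All 3 overlapped between the groups.

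**Figure D2:**
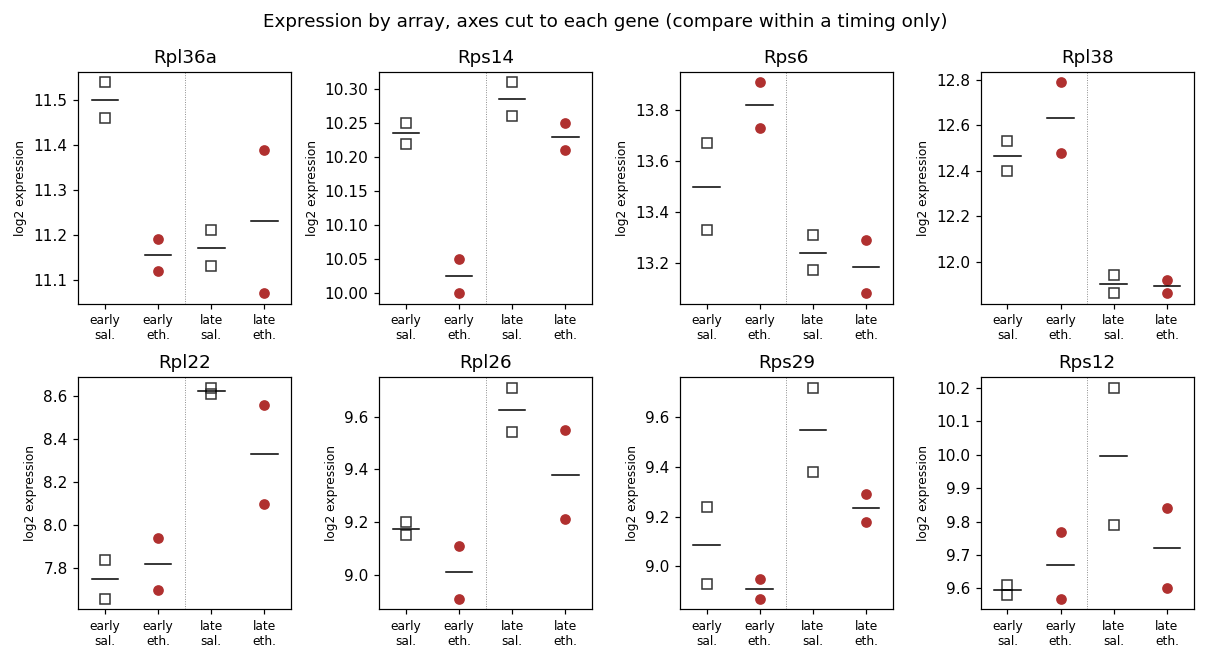
Log2 expression (vertical axes, cut to the range of each gene) by array for 8 ribosomal protein genes, with open squares for saline, filled circles for ethanol and a line at the mean of the 2 arrays. The early ethanol arrays lie below early saline for Rpl36a and Rps14 and above it for Rps6, and the late ethanol arrays lie below late saline for Rps14, Rpl22 and Rps29. The array medians of the 2 timings differ, so levels are compared within a timing.

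The early differences followed the brightness of the probe sets. The 11 ribosomal protein genes with a mean over 12 in the early arrays (Rpl9, Rpl10, Rpl19, Rpl21, Rpl28, Rpl38, Rpl41, Rps2, Rps6, Rps10 and Rps15) all lay above 0 or within 0.01 of it, from 0.00 in Rpl10 to 0.32 in Rps6, with a median of 0.152. The 437 probe sets of any gene in that range had a median of 0.118 and 89.0% were higher. Between 10 and 12 the median was -0.016 for 25 ribosomal protein genes and -0.001 for all probe sets, and between 8 and 10 it was -0.049 for 19 genes and -0.031 for all. At 8 or below it was -0.053 for 8 genes and -0.021 for all. Across the 63 genes, which share the same 4 arrays and the same normalisation, the early difference and the early level correlated with r = 0.46, and across all 23410 probe sets with r = 0.11. The ranges of brightness were chosen after values had been seen.

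Early saline replicate 2 minus the mean of the other 3 early arrays had a median of -0.259 over all probe sets above 12, and of -0.245 over the 11 genes. Without this array the 11 genes had a median early difference of 0.019 with 7 higher, all probe sets above 12 had a median of -0.015, and the medians of the subunits were -0.065 (large, 29 of 38 lower) and -0.122 (small, 18 of 25 lower). Without early saline replicate 1 the subunit medians were 0.071 and 0.024, with 17 of 63 genes lower. The direction of the early medians therefore depended on which of the 2 saline arrays was used. Under quantile normalisation over all 8 arrays the 11 genes above 12 had a median of 0.021 and all probe sets above 12 a median of -0.034.

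**Figure D3:**
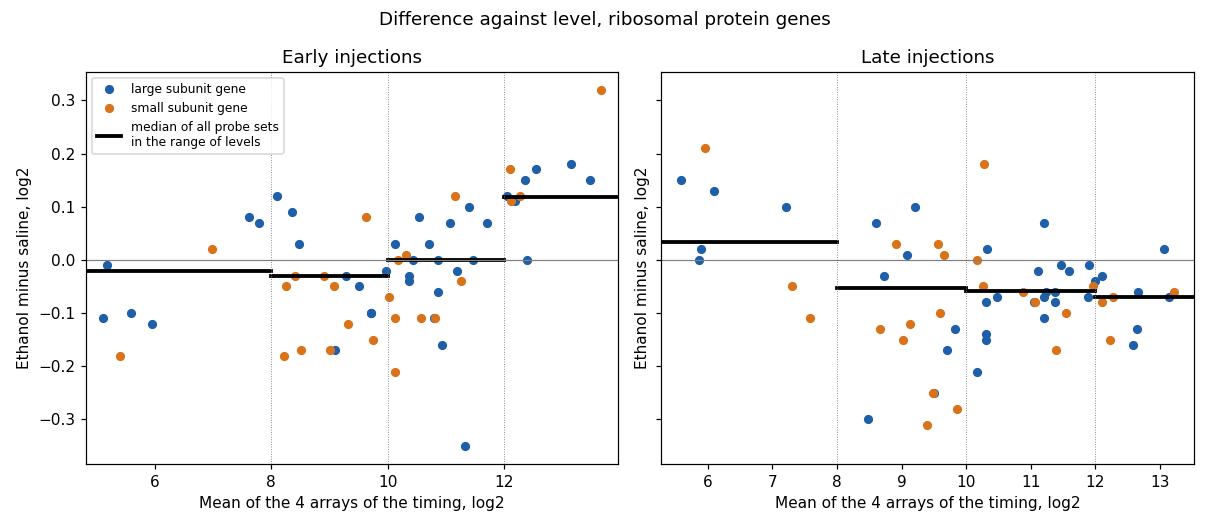
Ethanol minus saline (log2, vertical axis) against the mean of the 4 arrays of the timing (log2, horizontal axis) for each ribosomal protein gene (blue, large subunit; orange, small subunit), with black lines for the median of all probe sets in each range of levels. In the early arrays the 11 genes above 12 lie around the median of all probe sets there, 0.118, and in the late arrays most genes above 8 lie below 0.

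With late injections, most ribosomal protein genes read slightly lower after ethanol. In the large subunit 27 of 38 genes were lower, with a median of -0.057 and a range from -0.30 (Rpl22) to 0.15 (Rpl10l). In the small subunit 19 of 25 were lower, with a median of -0.076 and a range from -0.31 (Rps29) to 0.21 (Rps23rg1). Over all probe sets the median was -0.007 and 52.7% were lower, against 73.0% of the 63 genes. These shares were not matched for brightness. Some markers of brain cells were also lower. All 4 oligodendrocyte markers were lower in the late arrays, without overlap (background 15.7%) and with a median of -0.127. So were all 6 neuronal markers, with a median of -0.047 and 3 of them without overlap. Most of these markers are bright, and only 21.3% (10 to 12) and 11.6% (above 12) of all probe sets were higher there. Astrocyte markers were lower in 4 of 5 cases, microglial markers in 3 of 5 (median -0.002) and choroid plexus markers in 3 of 6 (median -0.035). In the early arrays the 4 oligodendrocyte markers were higher (median 0.185) and 5 of 6 neuronal markers were higher (median 0.045). The part of these markers in the ribosomal protein differences was not tested. No gene of either subunit passed an adjusted p of 0.05 (limma; background 0.0%) or an unadjusted p of 0.05, which 583 of all probe sets passed, and therefore none passed the thresholds of the study (background 1.16%). Both ethanol arrays lay below both saline arrays for 20 genes, 10 in each subunit (background 15.7%), and above them for 2, Rpl12 and Rps15a (background 12.7%). The median size of a difference was 0.076 and its median standard error 0.108.

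These late medians depended on the scaling. Centring each array on its median gave -0.078 (large) and -0.098 (small), whereas quantile normalisation over all 8 arrays gave -0.007 and -0.029 and cyclic loess -0.005 and -0.021, with 37 of 63 genes lower in both of the latter. Without late ethanol replicate 2 the large subunit median was -0.014.

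The late medians were set beside those of all probe sets of the same brightness. The medians were nearly equal in both ranges above 10, whereas between 8 and 10 the median of the ribosomal protein genes was lower than that of all probe sets. Above 12, the median was -0.071 for 10 ribosomal protein genes, 1 of which (Rpl41, 0.02) was higher, and -0.069 for 587 probe sets of any gene, 11.6% of which were higher. Between 10 and 12 the medians were -0.057 for 27 genes and -0.058 for all probe sets, and between 8 and 10 they were -0.127 for 18 genes and -0.052 for all. In these ranges 4 of 27 and 6 of 18 genes were higher, against 21.3% and 28.5% of all probe sets. By count, the genes between 8 and 10 were therefore not lower more often than all probe sets. At 8 or below, where the paralogs at background are found, the median was 0.060 for 8 genes and 0.034 for all probe sets. There 6 of the 8 genes were higher, against 65.1% of all probe sets. The share of all probe sets that were higher thus fell with brightness. The 52.7% lower over all probe sets is therefore not a share at the brightness of this family.

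In the large subunit the smallest late p-values were those of Rpl22, Rpl26, Rpl34, Rpl7l1 and Rpl12. Rpl22, an RNA-binding protein of the large subunit, read 8.10 and 8.56 in late ethanol and 8.64 and 8.61 in late saline. The groups did not overlap, although 1 ethanol array was within 0.05 of saline, and the difference was -0.30 ± 0.15 (limma, unadjusted p = 0.083, adjusted p = 1.0). Without late ethanol replicate 1 it was -0.07, and without late ethanol replicate 2 it was -0.52. Rpl26, which also binds the mRNA of p53, read 9.21 and 9.55 against 9.71 and 9.54, with overlap (-0.25 ± 0.13, unadjusted p = 0.090). Its difference was -0.07 without late ethanol replicate 1, -0.42 without late ethanol replicate 2 and -0.16 without late saline replicate 1. It was also lower in the early arrays, with 9.11 and 8.91 against 9.20 and 9.15 (-0.17 ± 0.13). Rpl34 read 10.01 and 10.11 against 10.36 and 10.18 (-0.21 ± 0.14), and the Rpl7 paralog Rpl7l1 read 10.26 and 10.22 against 10.42 and 10.34 (-0.14 ± 0.10). Rpl12, at background, was higher by 0.13 ± 0.09.

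In the small subunit, Rps29, a short zinc-binding protein, had the smallest late p-value. It read 9.18 and 9.29 in late ethanol and 9.38 and 9.72 in late saline, with no overlap and a difference of -0.31 ± 0.14 (unadjusted p = 0.055, adjusted p = 1.0), or 19.3% lower. Without late saline replicate 2 the difference was -0.14 and without late saline replicate 1 it was -0.48. All 4 of its probe sets were lower, by -0.35 to -0.31 in the late and by -0.22 to -0.17 in the early arrays. Rps12 read 9.84 and 9.60 against 9.79 and 10.20, with overlap (-0.28 ± 0.15, unadjusted p = 0.094), and its 14 probe sets, the most of any gene, were all lower, from -0.29 to -0.11. The 14 are not separate measurements, since several repeat the same values (means of 9.746 or 9.623). The Rps12 difference was -0.07 without late saline replicate 2, -0.48 without late saline replicate 1 and -0.15 without late ethanol replicate 2. In the early arrays the same 14 were all higher, from 0.04 to 0.12. Rps27l, a p53-induced paralog of Rps27, read 9.32 and 9.42 against 9.76 and 9.47 (-0.25 ± 0.15). Against the majority, Rps15a read 10.26 and 10.47 in late ethanol and 10.14 and 10.24 in late saline, higher without overlap (0.18 ± 0.11). Rps23rg1, at background, read 6.20 and 5.91 against 5.74 and 5.94 (0.21 ± 0.11).

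Among the stalk and scaffold proteins, Rpsa alone had both late ethanol arrays below both late saline arrays. Rplp0 differed by -0.11 ± 0.11, Rplp1 by -0.03 ± 0.11, Rplp2 by 0.01 ± 0.14 and Rpsa by -0.10 ± 0.08. The 5 probe sets of Rpsa ran from -0.10 to 0.04 in the late arrays. The one whose number lies among genes of chromosome 9, where Rpsa is encoded, gave -0.00.

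Where both a gene and its paralog were measured, their differences could be set side by side. Rpl7 differed by -0.10 ± 0.11 (early) and -0.15 ± 0.11 (late) and Rpl7l1 by 0.03 ± 0.10 and -0.14 ± 0.10. Rpl10 differed by 0.00 ± 0.09 and -0.06 ± 0.09, and Rpl10l, at background, by -0.01 ± 0.11 and 0.15 ± 0.11. Rps4x, the X-linked gene, differed by 0.00 ± 0.07 and -0.08 ± 0.07, and Rps4l by 0.02 ± 0.08 and -0.11 ± 0.08. None of these differences reached an unadjusted p of 0.05. The paralogs Rpl3l and Rpl39l, at background, differed by -0.10 ± 0.09 and -0.11 ± 0.09 in the early and by 0.02 ± 0.09 and 0.00 ± 0.09 in the late arrays.

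The test of whether the ethanol difference itself differed between the timings gave no gene with an adjusted p under 0.05 (limma; background 0.0%). The early minus late difference had a median of 0.058 in the large subunit, where 30 of 38 genes were higher, and of 0.010 in the small subunit, where 13 of 25 were higher. Over all probe sets the median was -0.019, and 10485 of 23410 were higher. These counts were not matched for brightness. Above 12, 89.0% of all probe sets were higher early and 11.6% late. At an unadjusted p under 0.05, 2 of 63 genes passed, Rpl36a and Rps23rg1, against 2.06% of all probe sets. Rps23rg1 was at background in both timings, with -0.40 ± 0.16 (unadjusted p = 0.037, adjusted p = 1.0). The next 2 by p-value were Rpl12 (-0.24 ± 0.12) and Rpl22 (0.37 ± 0.21) within the large subunit, and Rps6 (0.37 ± 0.19) and Rps2 (0.32 ± 0.17) within the small subunit. Without early saline replicate 2 the large subunit median turned to -0.025.

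Counted by gene, 24 of the 63 were lower at both timings, 6 higher at both, 22 higher early and lower late, and 11 the reverse. The shares were 38.1%, 9.5%, 34.9% and 17.5%, against 29.6%, 17.1%, 23.1% and 30.2% of all probe sets. Rpl5, Rps14 and Rpsa, 3 of the 63 (4.8%), had both ethanol arrays below both saline arrays at each timing, against 2.0% of all probe sets. None of these shares was matched for brightness. For Rps14 and Rpsa the probe set used has a number among genes of another chromosome. Across the 63 genes the early and late differences correlated with r = -0.05, and across all 23410 probe sets with r = -0.2. The 2 timings shared no array.

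The genes with a pyrimidine tract at the listed start, shown above for Rps6 and Rpl38, had a median early difference of 0.097 (10 genes, 7 higher, from -0.17 to 0.32). The 41 genes with an entry and no tract there had a median of -0.028 (16 higher, from -0.35 to 0.17). The late medians were -0.005 and -0.070. The tract genes include Rpl28, Rpl38, Rps6 and Rps10, which are among the 11 above 12, and the part of brightness was not tested.

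The probe sets of this family need care, since a probe cannot tell a gene from near-identical processed copies. The 63 genes had 219 probe sets carrying their symbol alone, 24 genes with a single probe set and 39 with several. Probe set numbers of this array run along the chromosomes: 97.5% of the other single-symbol probe sets stood among neighbours of their own chromosome, but only 63 of the 219 (28.8%) did so here. For 30 of the 63 genes the brightest probe set, the one used above, stood among neighbours of another chromosome, for example chromosome 10 for Rps6 and chromosome 3 for Rps14, which is encoded on chromosome 18. Such values are uncertain as measures of the parent gene.

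Both kinds of probe set could be compared in 25 genes. The differences had the same sign in 19 of them early (r = 0.80) and in 24 late (r = 0.59). Rpsa was among the exceptions in the early arrays, with -0.15 from the brightest probe set and 0.01 from the one among neighbours of chromosome 9. Rps14 gave -0.21 and -0.14 early and -0.05 and -0.27 late. The 33 genes whose brightest probe set stood among its own neighbours had medians of -0.030 early and -0.054 late, and the 30 others had medians of 0.013 and -0.070. Over all 219 probe sets, 128 were higher and 91 lower in the early arrays, and 32 were higher and 187 lower in the late arrays. They are not all separate measurements, since only 207 had distinct values. Another 239 probe sets were shared between several symbols, at least 1 of them from this family. Their medians were 0.059 early (175 higher) and -0.095 late (230 lower). None of them passed an adjusted p of 0.05 (limma). At an unadjusted p under 0.05, 11 passed early and 0 late, against 1.71% and 2.49% of all probe sets. Of all probe sets, 59.8% were lower early and 52.7% late. The counts over the 219 and the 239 were not matched for brightness.

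**Figure D4:**
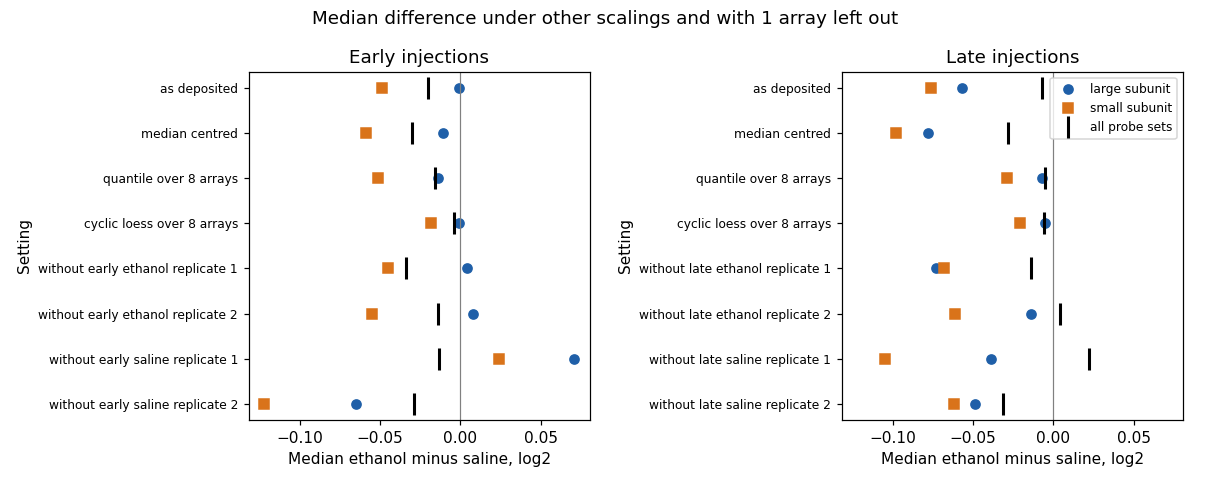
Median ethanol minus saline (log2, horizontal axis) over the large subunit genes (circles), small subunit genes (squares) and all probe sets (bars), for the values as deposited, under 3 other scalings and with 1 array left out. The early medians turn positive without early saline replicate 1 (0.071 and 0.024), and the late medians move towards 0 under quantile normalisation and cyclic loess over 8 arrays.

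Genes that make, regulate or work with the ribosome were read from fixed lists. None of their genes passed an adjusted p of 0.05 at either timing. The counts of lower genes below stand against 59.8% (early) and 52.7% (late) of all probe sets. Between 8 and 10, where many of these genes lie, only 35.7% (early) and 28.5% (late) of all probe sets were higher. The ribosome assembly factors, 63 genes needed to process rRNA and put the subunits together, were lower in 49 cases at each timing, with medians of -0.050 early and -0.065 late. In this list 1 gene at each timing had an unadjusted p under 0.05, against 1.71% (early) and 2.49% (late) of all probe sets. These were Noc3l early (-0.18 ± 0.08) and Pes1 late (-0.23 ± 0.09), and both act in maturation of the large subunit. Second in order were Wdr75 early (-0.18 ± 0.08) and Mrto4 late (-0.21 ± 0.10).

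RNA polymerase I and its factors, which transcribe the rRNA genes, were lower in 10 of 14 genes early and 9 late (medians -0.064 and -0.082). Taf1a, a subunit of the promoter selectivity factor, differed by 0.20 ± 0.08 early and Taf1d by -0.20 ± 0.14, while Polr1d (-0.22 ± 0.11, at background) and Polr1e (-0.15 ± 0.09, at background) had the smallest late p-values. Of 18 genes of the mTOR pathway and S6 kinases, 12 were lower early and 13 late (medians -0.028 and -0.021). Eif4ebp1, a repressor of translation initiation that mTOR inactivates, differed by -0.17 ± 0.12 early, as did Rheb, which activates mTOR, by -0.17 ± 0.12. The mTOR substrate Akt1s1 differed by -0.20 ± 0.10 and Rps6ka3 by -0.16 ± 0.09 late.

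Of 38 initiation factors 20 were lower early and 28 late (medians -0.009 and -0.044). The 2 with the smallest p-values at each timing belong to eIF3, the complex that brings mRNA to the small subunit. They were Eif3m (-0.21 ± 0.09) and Eif3f (-0.18 ± 0.10) early, and Eif3i (-0.20 ± 0.09) and Eif3b (-0.26 ± 0.15) late. Only Eif3m early had an unadjusted p under 0.05 (limma), 1 of 38 against 1.71% of all probe sets. Not all eIF3 genes were lower: Eif3h (0.07) and Eif3k (0.05) were higher early, and Eif3e (0.09) and Eif3c (0.05) late. The 6 elongation factors had medians of 0.027 and -0.054, with 3 and 5 lower. Among them Eef1a1, which delivers aminoacyl-tRNA, differed by 0.12 ± 0.11 and Eef1e1 by -0.14 ± 0.15 early, and Eef1a2 by -0.08 ± 0.11 and Eef2 by -0.07 ± 0.10 late. Fau, whose product includes a small subunit protein under another name, differed by -0.02 ± 0.09 and -0.09 ± 0.09.

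The snoRNA host genes Gas5 and Snhg5, whose transcripts also begin with a pyrimidine tract, differed by -0.10 ± 0.12 and -0.12 ± 0.12 early and by 0.05 ± 0.12 and -0.04 ± 0.12 late. The pseudogenes Rpl14-ps1 and Rps19-ps3 lay within 0.08 of 0 at both timings.

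The mitochondrial ribosomal proteins belong to a separate ribosome and are not members of the family above. They were lower in 54 of 77 genes early (median -0.030) and in 65 late (median -0.098). Over all probe sets 59.8% were lower early and 52.7% late, shares not matched for brightness. Between 8 and 10, where many of these genes lie, only 35.7% (early) and 28.5% (late) of all probe sets were higher. The thresholds of the study were passed by 2 of 77 early, against 0.923% of all probe sets, Mrps26 (-0.42 ± 0.12, unadjusted p = 0.0065) and Mrps7 (-0.29 ± 0.11, unadjusted p = 0.028). In the late arrays 6 had an unadjusted p under 0.05, against 2.49% of all probe sets, and 3 passed both thresholds, against 1.16%. The 3 were Mrps35 (-0.29), Mrpl42 (-0.53 ± 0.18, unadjusted p = 0.017, at background) and Mrps27 (-0.40 ± 0.14, unadjusted p = 0.021).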

How the data were processed

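Per the labels and the study's methods, the authors scanned arrays in Affymetrix Command Console and deposited log2 values per probe set, summarised by RMA with quantile normalisation and GC adjustment in Partek Genomics Suite (6.6 in the submitters' notes). The late arrays are taken to have been processed like the early ones. The genome build was not given in the sources used here.

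Of 35556 probe sets, 23410 carried a gene symbol and were tested. A gene with several single-symbol probe sets was represented by the one of highest mean over 8 arrays. All 63 genes matched RefSeq (GRCm38.p6) by Entrez ID. The ethanol and saline arrays were compared with limma 3.58.1 in R 4.3.3, fitting 4 group means to 8 arrays with moderated variances and Benjamini-Hochberg adjustment over 23410 probe sets at a threshold of 0.05. Values after ± are standard errors. With 2 pooled arrays per group, the number of arrays limits precision, and p-values measure only the spread between pools. The fit was tested on simulated data.

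The genes named were the 5 smallest p-values per subunit and timing, the 3 smallest per subunit for early minus late, fixed paralog pairs, the stalk and scaffold proteins with Rps6, and the 2 smallest per pathway list; others named in counts were chosen after their values were seen. Members and lists were chosen with earlier results of these data known. Other scalings, filters, probe set rules, variances, a replicate block and leaving out each array were tried. Same-numbered arrays deviated together in the early (r = 0.47) and in opposite directions in the late arrays (r = -0.46), so the numbers were not taken as pairs.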

Additional observations from a re-analysis of the deposited data

How the results depend on the processing

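No ribosomal protein gene passed the adjusted threshold under any alternative. Only the 2 genes with the smallest p-values per subunit and timing were followed through all alternatives. Each of these 8 (Rpl36a, Rpl5, Rps14 and Rps6 early, and Rpl22, Rpl26, Rps12 and Rps29 late) kept its direction, though not its size. This does not hold for every gene named above. The early difference of Rpsa was -0.15, and 0.01 with the probe set among neighbours of its own chromosome. Over all alternatives the early differences ran from -0.39 to -0.30 (Rpl36a), -0.27 to -0.04 (Rpl5), -0.23 to -0.14 (Rps14) and 0.04 to 0.49 (Rps6), and the late ones from -0.52 to -0.07 (Rpl22), -0.42 to -0.07 (Rpl26), -0.48 to -0.07 (Rps12) and -0.48 to -0.14 (Rps29). Of 140 alternative subunit medians 131 moved by less than 1 standard error of the difference between arrays. This count overstates stability. The intensity trend, the 4 arrays alone, the unmoderated test, every probe set and the replicate blocks change the test and not the medians. Leaving out an array of the other timing cannot move an early or late median. The early small median went from -0.049 to 0.024 without early saline replicate 1, which was within its standard error of 0.081. The 9 that moved further were 5 under another scaling and 4 with an array left out. The 5 were the late large subunit (main -0.057) under cyclic loess (-0.005), quantile normalisation over 8 arrays (-0.007) and median centring (-0.078), and the late small subunit (main -0.076) under cyclic loess (-0.021) and quantile normalisation (-0.029). The 4 were the late large median without late ethanol replicate 2 (-0.014) and without late saline replicate 1 (-0.039), the early minus late large median without early saline replicate 2 (-0.025) and the small without early saline replicate 1 (0.118). With 1 array left out the late large median ranged from -0.073 to -0.014, the early minus late large median from -0.025 to 0.121 and the small from -0.051 to 0.118. The cause was not tested.

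The early count past the thresholds of the study was 2 (Rpl36a and Rps6). It was 1 under cyclic loess, quantile normalisation, median centring, an intensity trend, the 4 arrays alone, the unmoderated test of the study's methods, every probe set, the mean of all probe sets of a gene, the probe set among neighbours of the own chromosome (added after seeing the data) and the replicate block, and 1 to 6 with 1 array left out. The highest count came without early saline replicate 2, and it was 4 without early ethanol replicate 1 or early saline replicate 1. The late count was 0, or 1 with the replicate block, 3 with the late numbers crossed (added after seeing the data), and 0 to 4 with 1 array left out, the highest without late ethanol replicate 2 or late saline replicate 1. With the replicate block the subunit medians are the same by construction, since each block holds 1 ethanol and 1 saline array.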
